A study of Homo sapiens with 24 samples.

Results

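Asparagine and glutamine transfer RNA (tRNA) genes were described in HEK293 cells that overexpressed a control protein or 1 of 3 nuclear lamins. The 60 genes were every nuclear row of the small RNA table annotated as tRNA whose first name began with tRNA-Asn or tRNA-Gln, and the same rows were used in the accessibility table. They were 60 of 175946 features, beside 439 other nuclear tRNA genes with an isotype name. Of them, 36 were asparagine genes (34 with the anticodon GTT and 2 with ATT) and 24 were glutamine genes (18 with CTG and 6 with TTG). The rule used names only and no measured value.

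The cells were HEK293 from ATCC, an established human embryonic kidney line, and the labels give the genotype of every group as wild type. The 4 groups overexpressed enhanced green fluorescent protein (eGFP, the control, called GFP), LMNA, LMNB1 or LMNB2, and 3 replicates of each were measured in 2 assays, 24 libraries in all. Small RNA-seq counted RNA from an extract enriched for small RNA, and ATAC-seq counted DNA fragments released from open chromatin by a transposase. Cells were collected anew for the small RNA, so the assays did not share cells. The labels do not say whether replicates were separate cultures, so p-values measure only the spread between these samples, which may be technical. The vector, the time of collection and the level of each overexpressed protein were not analysed here.

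A tRNA gene is transcribed by RNA polymerase III from a promoter inside the gene, made of an A box and a B box that bind the factor TFIIIC, which in turn places TFIIIB at the start site. Most amino acids are served by many gene copies that differ in their anticodon (isoacceptors) or in the rest of their sequence (isodecoders), and the mature RNA of identical copies cannot be told apart. tRNA with the anticodon GTT reads both asparagine codons, and the anticodons CTG and TTG read the glutamine codons. Lamins A/C, B1 and B2 are filament proteins on the inner face of the nuclear envelope, where they contact chromatin. The comparisons set the RNA and the accessibility of these genes under each lamin against GFP, and the lamins against one another.

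The genes were concentrated on 2 chromosomes of the build GRCh38. Chromosome 1 held 41 of the 60, of which 34 (25 asparagine and 9 glutamine genes) lay in a block that spans the centromere, from the tRNA-Gln-CTG-8-2 copy that starts at 120476852 to TRN-GTT8-1, which ends at 149740321. Chromosome 6 held 11, all glutamine genes, and 9 of these lay between 26311196 (TRQ-TTG3-1) and 28941672 (TRQ-CTG1-3), a region known for its large tRNA and histone gene clusters. Chromosome 17 held 3, and chromosomes 10, 12, 13, 15 and 19 held 1 each. Only TRQ-TTG2-1 lay inside the span of a protein-coding gene, SCAND3, at chr6:28589379-28589450 on the plus strand. Another annotated feature overlapped 35 of the genes, a lncRNA in 31 cases and a feature of the same strand in 18, and whether such reads were separated by strand is not given in the sources used here. A RefSeq tRNA gene of identical span existed for 40 (21 asparagine and 19 glutamine genes). These are named by their RefSeq symbol, in which TRN stands for asparagine and TRQ for glutamine, and the other 20 by the table's name, with the start on chromosome 1 where copies share a name.

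Levels are given as CPM, the count relative to the scaled library total. Genes were 66 to 76 bp long and the counted intervals 116 to 126 bp, so the CPM of different members are close to a comparison per length. Small RNA counts passed the filter on low counts at 50 genes (27 asparagine and 23 glutamine genes), whose mean counts per library ran from 13.8 to 5146. The 10 that did not pass had mean counts of 0.583 to 5.25 and were 9 asparagine genes and tRNA-Gln-CTG-12-1. ATAC counts passed at 58 (34 and 24), all but the 2 copies of tRNA-Asn-GTT-16-5.

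TRN-GTT2-3 (chr10:22229509-22229582, minus strand) had the highest small RNA level of the asparagine genes. It was at 21.7, 11.3 and 10.6 CPM with GFP, 19.6, 18.7 and 19.0 with LMNA, 12.7, 16.1 and 13.1 with LMNB1 and 12.5, 13.7 and 12.2 with LMNB2. The LMNA libraries lay above every LMNB1 and LMNB2 library, whereas the GFP libraries spanned all of these values. TRN-GTT24-1 (chr1:146370101-146370174, plus strand) followed with a mean of 14.2 CPM over the 12 libraries, and its ATAC window had the highest CPM of the asparagine genes, 5.71. The 10 highest asparagine genes held 80.5% of the summed asparagine level, and the median over all 36 was 1.29 CPM. The 2 genes with the anticodon ATT, at 146486572 and 148246758 on chromosome 1, were at 1.25 and 1.28 CPM. The copy at 148246758 read 1.69, 1.10 and 1.10 CPM with GFP, 1.27, 1.45 and 1.56 with LMNA, 0.936, 1.80 and 1.42 with LMNB1 and 0.929, 1.03 and 1.09 with LMNB2, so that its LMNB2 libraries lay below those of GFP and LMNA. The margin to GFP was narrow, 1.094 CPM in the highest LMNB2 library against 1.095 CPM in the lowest GFP library.

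TRQ-CTG2-1 (chr6:27547752-27547823, minus strand) had the highest small RNA level of all 60 genes, 20.7% of the glutamine sum. It was at 34.3, 22.2 and 41.7 CPM with GFP, 29.8, 28.7 and 33.4 with LMNA, 37.3, 34.1 and 46.7 with LMNB1 and 28.6, 24.5 and 30.7 with LMNB2. Its LMNB1 libraries lay above all LMNA and LMNB2 libraries, and GFP overlapped each of the other groups. TRQ-CTG1-4 (chr15:65869062-65869133, minus strand) came next at a mean of 24.8 CPM. The 5 highest glutamine genes held 60.7% of the glutamine sum. Among genes with the anticodon TTG, TRQ-TTG1-1 (chr17:49192528-49192599, plus strand) was highest in both assays, with means of 5.18 CPM in small RNA and 7.08 CPM in ATAC. Its small RNA level was 4.15, 3.40 and 8.13 CPM with GFP, 5.43, 4.83 and 5.67 with LMNA, 6.50, 4.83 and 7.40 with LMNB1 and 4.16, 3.38 and 4.23 with LMNB2, with the LMNB2 libraries below all LMNA and LMNB1 libraries.

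Many members are copies of the same RNA. The 60 rows carried 38 distinct sequence identifiers, and 32 rows shared theirs with another member, so members are not independent readouts and are not replicates of a condition. Copies of the same RNA nevertheless differed in their counts. The 8 TRN-GTT2 genes, on chromosomes 1, 10, 13, 17 and 19, ran from 6.93 CPM at TRN-GTT2-2 to 15.1 CPM at TRN-GTT2-3. The 5 TRQ-CTG1 genes ran from 9.03 CPM at TRQ-CTG1-1 to 24.8 CPM at TRQ-CTG1-4. In contrast, the 3 tRNA-Gln-CTG-8-2 copies were within 1.07 to 1.09 CPM of each other. How reads that match several copies were counted is not given in the sources used here, so a difference between copies can reflect reads from the bases just outside the gene as well as the mature RNA, and this was not tested.

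Accessibility was read from ATAC windows of 366 to 376 bp around each gene, and its local contrast as the window's count per base over that of the flanks of 500 bp. The median contrast was 3.67 over the 60 genes, and it was above 2 in 38 of them (63.3%), against a median of 3.91 and a share of 68.1% of the other nuclear tRNA genes. Asparagine genes had a median of 3.77 (21 of 36 above 2) and glutamine genes one of 3.33 (17 of 24). TRN-GTT2-4 on chromosome 13 stood highest, at 30.2, and TRN-GTT2-5 on chromosome 17, a copy of the same RNA, stood lowest, at 0.489. Both windows had similar levels, 2.89 and 2.25 CPM, so these genes differed mainly in the counts of their flanks. The most abundant gene, TRQ-CTG2-1, had a contrast of 1.14 at 2.09 CPM. Genes with a RefSeq counterpart had a median contrast of 7.10 and those without one of 1.53.

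Across genes, small RNA and ATAC levels were ranked alike. Spearman's rho between the mean CPM of the assays was 0.789 over the 60 genes, 0.833 over the asparagine genes and 0.628 over the glutamine genes. These are descriptions across genes, each averaged over the 12 libraries of its assay, with no test, since genes share reads and are not independent. Against the local contrast instead of the window's CPM, rho was 0.395 in all, 0.605 for asparagine and -0.03 for glutamine. At an ATAC level of 0.2 CPM or more stood 38 genes, whose median small RNA level was 5.27 CPM, with 36 of them above 1 CPM. Below it stood 22, with a median of 0.094 CPM and 4 above 1 CPM. Those 4 were TRN-GTT10-1 at 3.41 CPM, tRNA-Asn-GTT-20-1 at 2.03 CPM and the tRNA-Gln-CTG-8-2 copies at 120476852 and 149044937, at 1.08 and 1.07 CPM. They were named after their values were seen. Genes with a RefSeq counterpart had a median small RNA level of 5.13 CPM and those without one of 0.060 CPM.

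**Figure D1:**
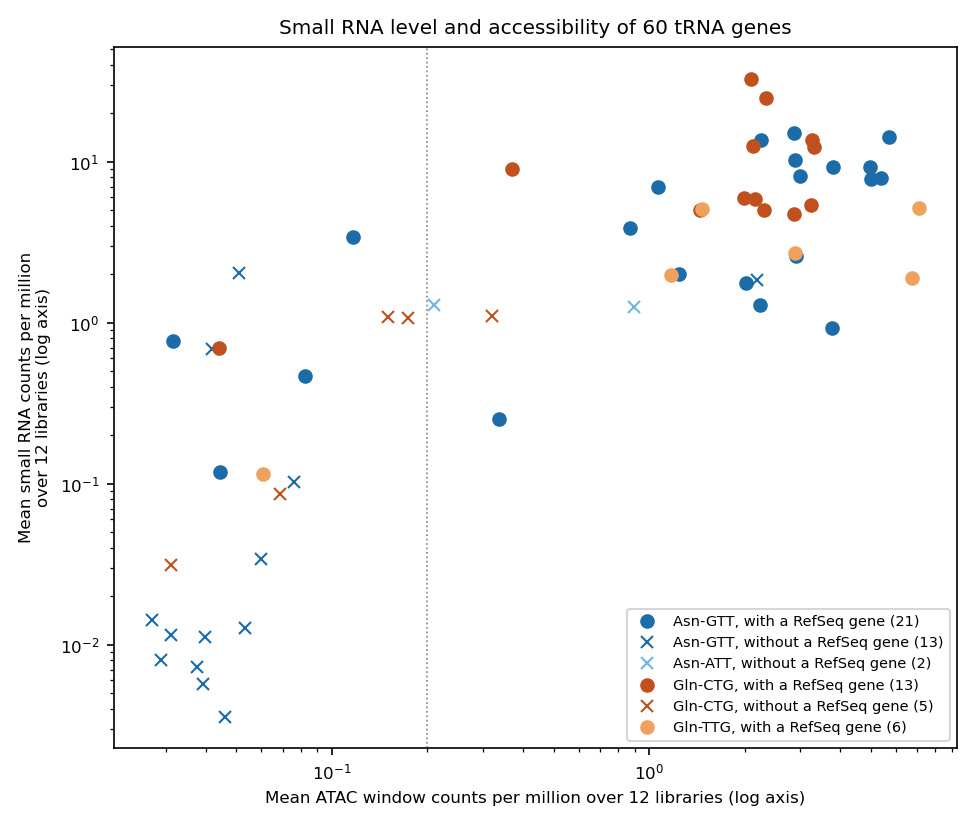
Each point is a gene, placed by its mean ATAC window CPM (horizontal, log axis) and mean small RNA CPM (vertical, log axis) over the 12 libraries of each assay, with colours for the anticodon and crosses for genes without a RefSeq counterpart. The dotted line marks 0.2 ATAC CPM, to the right of which 36 of 38 genes were above 1 CPM in small RNA and to the left of which 4 of 22 were.

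The small RNA libraries held 132507051 to 195074742 counts each and the ATAC libraries 156043245 to 290158229. In small RNA the scaling factor (TMM, which aligns libraries on their shared features) ranged from 0.631 to 1.31, and both extremes were GFP libraries, replicates 1 and 3. In ATAC it ranged from 0.879 to 1.09. No 2 libraries of a group held identical values. The 5 microRNA genes of the MIR17 cluster, listed for dividing cells such as HEK293, all had counts and summed to 32.9 to 64.5 CPM with GFP, 26.0 to 48.9 with LMNA, 34.5 to 38.0 with LMNB1 and 23.5 to 25.8 with LMNB2, the last below every other library. The 10 microRNA genes listed for other cell types summed to 0.739 to 4.44 CPM, nearly all from the endothelial MIR126 (0.704 to 4.39 CPM), and the hepatocyte, blood, muscle and neuron genes reached at most 0.064 CPM. The part of these values in the results was not tested.

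Summed over the 36 asparagine genes, the small RNA level was 145, 87.3 and 110 CPM with GFP, 153, 148 and 151 with LMNA, 112, 158 and 130 with LMNB1 and 107, 114 and 110 with LMNB2. The means were 114 ± 29.3 (SD, n = 3) in GFP, 151 ± 2.74 with LMNA, 133 ± 23.1 with LMNB1 and 111 ± 3.34 with LMNB2. From the highest mean, the order was LMNA, LMNB1, GFP and LMNB2, and only LMNA was separate from GFP and from LMNB2 in all libraries. LMNB1 overlapped every other group. In these bulk libraries, fewer cells with an RNA and less of that RNA per cell cannot be told apart.

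Over the 24 glutamine genes the sum was 128, 92.5 and 287 CPM with GFP, 151, 126 and 161 with LMNA, 178, 147 and 252 with LMNB1 and 131, 103 and 136 with LMNB2. The means were 169 ± 104 (SD, n = 3), 146 ± 17.8, 192 ± 53.9 and 123 ± 18.0. The GFP library of replicate 3 was the highest of all 12 and that of replicate 2 the lowest, so every other library lay inside the range of the control. In each of the 4 groups the library of replicate 3 was the highest and that of replicate 2 the lowest for this sum. The only groups whose sums did not overlap were LMNB1, higher, and LMNB2.

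The balance between the amino acids followed the same libraries. The glutamine sum over the asparagine sum was 0.883, 1.06 and 2.61 with GFP, 0.988, 0.855 and 1.06 with LMNA, 1.58, 0.929 and 1.94 with LMNB1 and 1.21, 0.900 and 1.23 with LMNB2. The GFP library of replicate 3 stood above all others. As a share of the CPM of the 499 nuclear tRNA genes with an isotype name, asparagine genes held 1.07% to 1.25% and glutamine genes 1.19% to 1.70% in the group means. In ATAC the ratio stayed between 0.830 and 0.938 in all 12 libraries, and asparagine and glutamine windows held 4.37% to 4.43% and 3.77% to 3.97% of the CPM of the same genes.

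**Figure D2:**
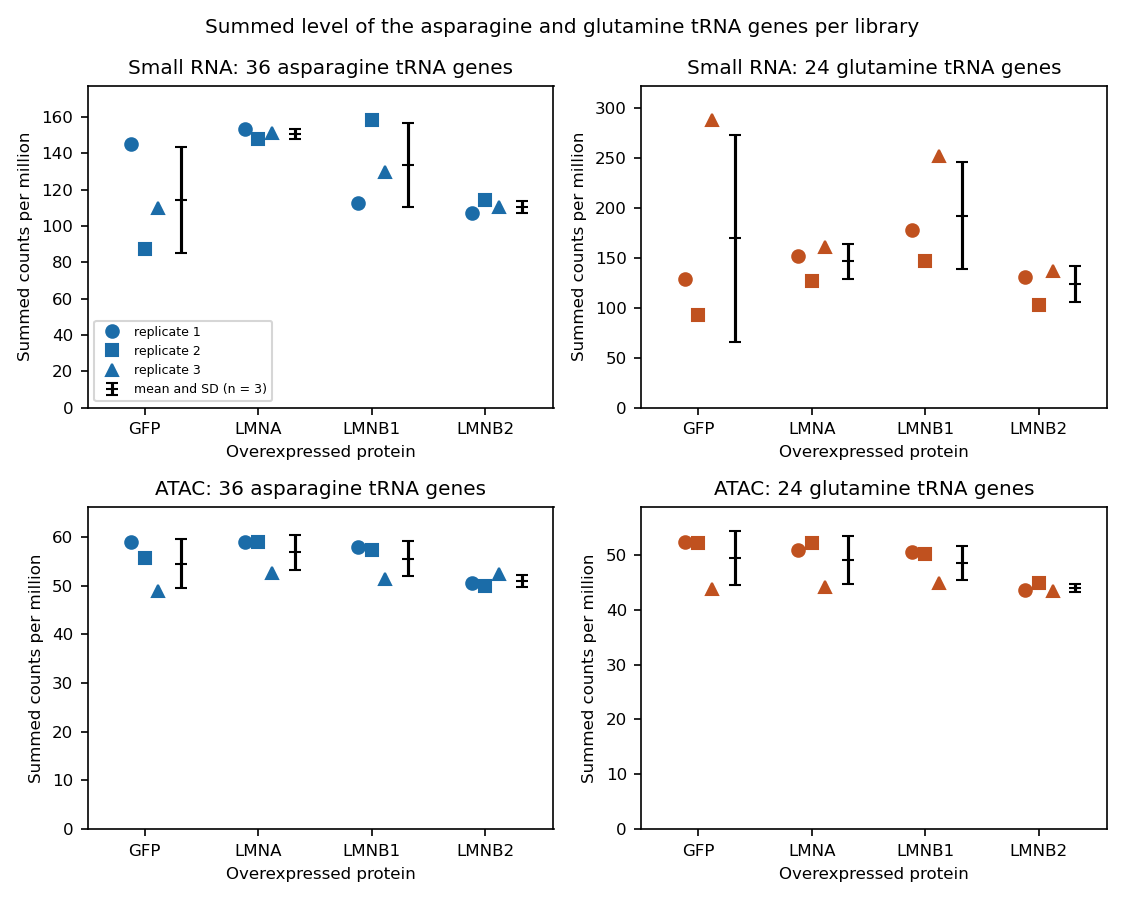
Summed CPM of the 36 asparagine genes (left) and 24 glutamine genes (right) in small RNA (top) and ATAC (bottom), a symbol for each replicate and the mean with SD (n = 3) beside it. The glutamine small RNA sum of GFP spans 92.5 to 287 CPM, wider than any other group, while the ATAC sums vary little.

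The spread of the glutamine genes was widest in the GFP group. Within groups, the median SD of the log2 level was 0.54 for glutamine genes, 0.27 for asparagine genes, 0.34 for other nuclear tRNA genes and 0.34 for all tested features. In GFP alone it was 0.90 for glutamine and 0.40 for asparagine genes, against 0.57 for other tRNA genes. The GFP library of replicate 3 held the highest value of all 12 libraries for 18 of 23 tested glutamine genes and for 4 of 27 asparagine genes. The GFP library of replicate 2 held the lowest for 16 glutamine and 19 asparagine genes. Relative to the mean of the other two GFP libraries, the library of replicate 3 was at a median of 2.72 times for glutamine genes (0.795 to 6.65 times) and 1.11 times for asparagine genes (0.643 to 2.73 times). At TRQ-CTG7-1 it was 6.65 times and at TRQ-CTG1-1 4.33 times, whereas the 3 tRNA-Gln-CTG-8-2 copies were not higher there. In ATAC the same ratio had medians of 0.846 for glutamine and 0.838 for asparagine genes, in the separately collected cells.

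Wide ranges over the GFP libraries were also measured for other isotypes. Ordered by the range over the GFP libraries, glutamine came after valine and methionine among 22 tRNA isotypes, and in LMNB1 after initiator methionine. Asparagine had the narrowest range of all 22 with LMNA. The median glutamine level relative to the GFP mean (log2) was -0.23, -0.77 and 0.98 in the GFP libraries, 0.09, -0.25 and 0.15 with LMNA, 0.27, -0.01 and 0.81 with LMNB1 and -0.13, -0.52 and -0.12 with LMNB2. For asparagine it was 0.24, -0.37 and 0.14 with GFP, 0.47, 0.50 and 0.44 with LMNA, 0.14, 0.50 and 0.36 with LMNB1 and 0.02, 0.10 and 0.08 with LMNB2. Asparagine LMNA libraries thus lay above those of GFP and LMNB2, and no group of glutamine libraries left the range of GFP.

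**Figure D3:**
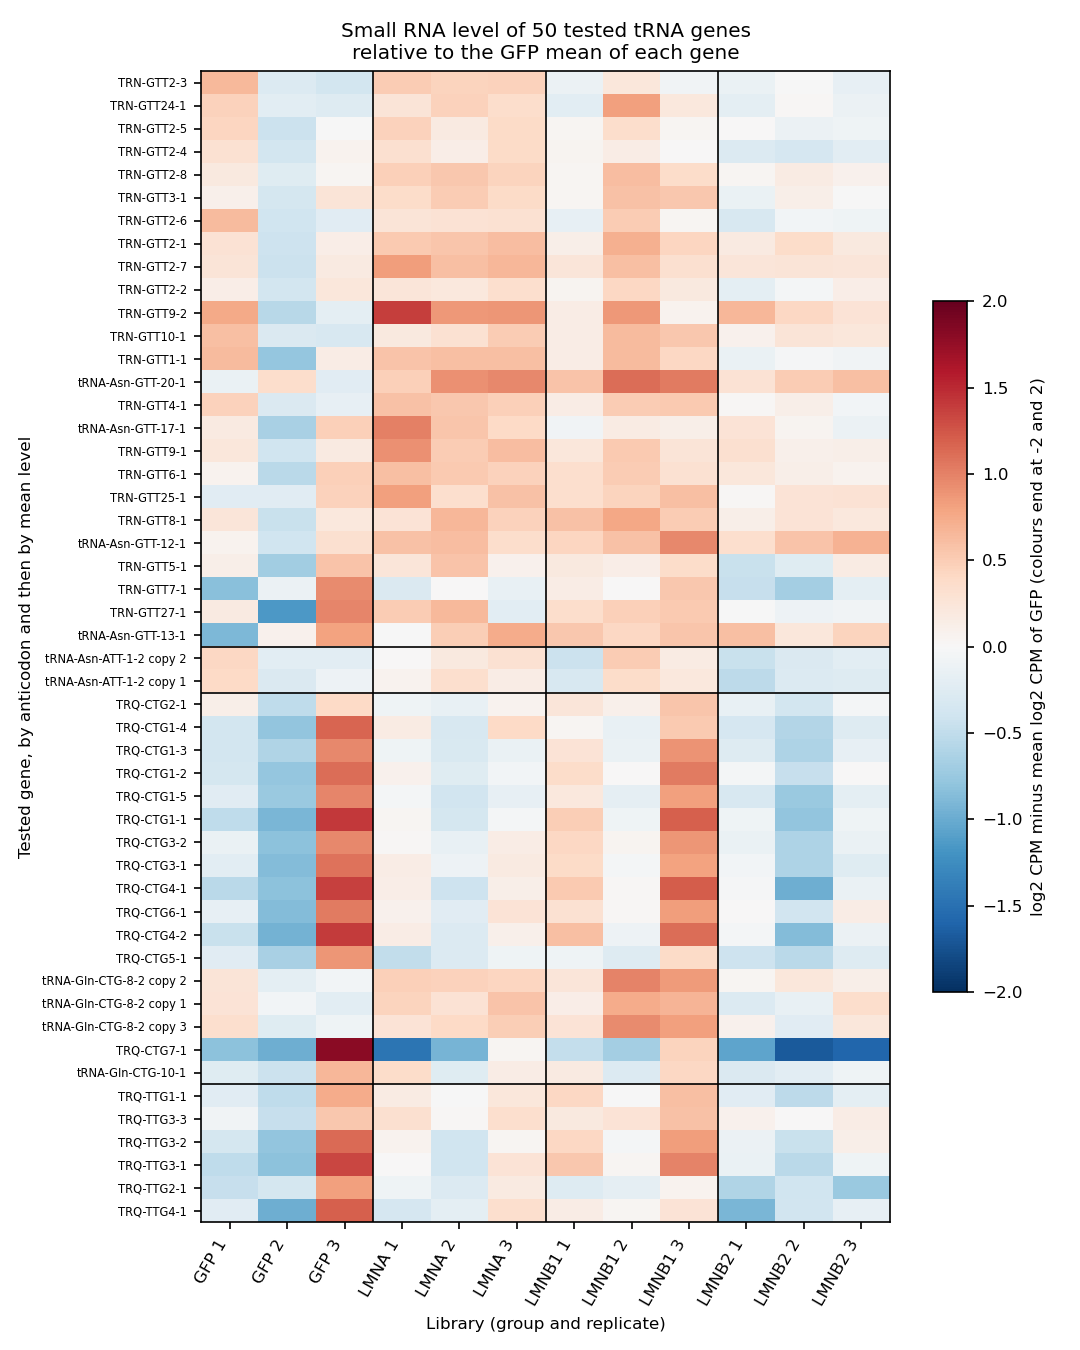
Log2 small RNA level of the 50 tested genes (rows, by anticodon and then by mean level) in the 12 libraries (columns), relative to each gene's GFP mean, red above and blue below it; copies that share a name are numbered by position. The column of GFP replicate 3 is red across most glutamine rows, 20 of 23 of which were highest there among the GFP libraries, while the LMNA columns are red across most asparagine rows.

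**Figure D4:**
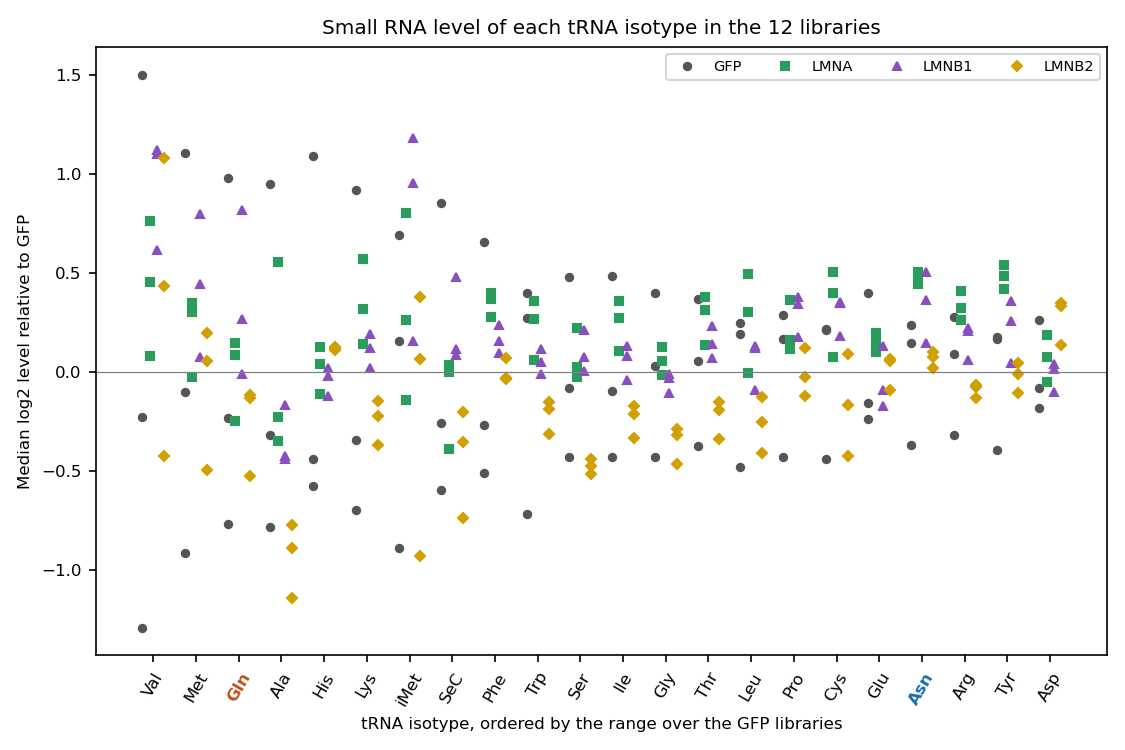
Median log2 small RNA level of each of 22 tRNA isotypes relative to GFP, a point per library, with isotypes ordered from left to right by their range over the 3 GFP libraries. Glutamine stands right after valine and methionine, with GFP points at -0.77, -0.23 and 0.98, and asparagine lies near the right end.

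With LMNA, most asparagine genes had higher small RNA levels than with GFP and most glutamine genes lower ones, but no gene passed the test. With p-values from edgeR (quasi-likelihood), adjusted by Benjamini-Hochberg over all 33893 tested features, 0 of 50 genes were called at an adjusted p under 0.05, and the share of all features called was 0%. DESeq2 called 2, tRNA-Asn-GTT-20-1 and TRN-GTT2-7, both higher, beside 0.207% of all features higher. The fitted log2 fold change was above 0 for 26 of 27 asparagine genes (median 0.40) and for 5 of 23 glutamine genes (median -0.18), against medians of 0.12 for other nuclear tRNA genes and -0.05 for all features. At an unadjusted p under 0.05, 12 asparagine genes and 1 glutamine gene were higher and none lower, against 2.83% of all features higher and 2.63% lower. Of the other tRNA genes, 49 of 413 were higher and 1 lower. LMNA libraries lay wholly above GFP at 10 asparagine and 2 glutamine genes, against 4.16% of all features and 38 of 413 other tRNA genes. The 2 glutamine genes were the tRNA-Gln-CTG-8-2 copies at 120476852 and 146055612, which are copies of the same RNA.

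The glutamine direction with LMNA rested on 1 control library. Without the GFP library of replicate 3, the glutamine median was 0.53 in place of -0.18 and the asparagine median was 0.60. In that fit 4 asparagine genes were called higher (TRN-GTT25-1, TRN-GTT6-1, TRN-GTT9-1 and TRN-GTT2-7), beside 0.776% of all features and 32 of 414 other tRNA genes. Without that of replicate 2, the medians were -0.54 and 0.25. All 3 lamin comparisons with GFP share these control libraries, and so does each statement on them.

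The lowest p among genes higher with LMNA was that of tRNA-Asn-GTT-20-1 (chr1:146049198-146049273, minus strand). It was at 1.22, 1.72 and 1.15 CPM with GFP, 1.87, 2.53 and 2.62 with LMNA, 1.99, 2.91 and 2.77 with LMNB1 and 1.64, 1.91 and 2.04 with LMNB2. All LMNA and LMNB1 libraries lay above all GFP libraries, and LMNB2 overlapped GFP. The log2 fold change over GFP was 0.77 ± 0.21 (SE) for LMNA (edgeR adjusted p = 0.867), 0.90 ± 0.21 for LMNB1 (adjusted p = 0.473) and 0.45 ± 0.21 for LMNB2 (adjusted p = 0.242). Its ATAC window held 0.051 CPM, at a contrast of 0.884.

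TRN-GTT9-1 (chr1:145475381-145475454, minus strand) was next, at 1.65, 1.06 and 1.59 CPM with GFP, 2.65, 2.00 and 2.16 with LMNA, 1.65, 2.03 and 1.69 with LMNB1 and 1.75, 1.51 and 1.53 with LMNB2. LMNA stood above GFP and LMNB2 in every library, with log2 fold changes of 0.66 ± 0.19 over GFP (edgeR adjusted p = 0.882) and of LMNB2 over LMNA of -0.51 ± 0.19 (adjusted p = 0.196). TRN-GTT2-7 (chr1:145287766-145287839, plus strand), which DESeq2 called, was at 7.24, 4.53 and 6.87 CPM with GFP and 10.9, 9.26 and 9.70 with LMNA, without overlap, a log2 fold change of 0.68 ± 0.21 (edgeR adjusted p = 0.882). Among glutamine genes, the lowest p for a lower level with LMNA was at TRQ-CTG7-1 (chr1:148328812-148328883, plus strand). It was at 0.455, 0.404 and 2.86 CPM with GFP, 0.286, 0.421 and 0.836 with LMNA, 0.580, 0.502 and 1.11 with LMNB1 and 0.386, 0.243 and 0.263 with LMNB2. Its LMNA and LMNB1 libraries overlapped GFP, and the log2 fold change of -1.25 ± 0.79 with LMNA (edgeR adjusted p = 0.908) was 0.32 without the GFP library of replicate 3. TRQ-CTG5-1 (chr6:27295433-27295504, plus strand) was at 4.35, 3.26 and 9.40 CPM with GFP and 3.63, 4.22 and 4.82 with LMNA, groups that overlapped. Its log2 fold change of -0.42 ± 0.31 (adjusted p = 0.913) was 0.22 without that library.

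With LMNB1, both amino acids had more genes above than below the GFP level, and again none passed. edgeR called 0 of 50 genes and DESeq2 called 0, beside 0.0384% of all features called by edgeR and 0.062% called higher and 0% lower by DESeq2. Fold changes were above 0 for 25 of 27 asparagine genes (median log2 0.30) and 18 of 23 glutamine genes (median 0.24), against medians of 0.04 for other tRNA genes and -0.05 for all features. At an unadjusted p under 0.05, 4 asparagine and 3 glutamine genes were higher and none lower, against 2.23% of features higher and 3.28% lower. Of the other tRNA genes, 23 of 413 were higher and 6 lower. The libraries did not overlap, with LMNB1 higher, at 4 asparagine genes and 0 glutamine genes, against 4.76% of features and 24 of 413 other tRNA genes. The 4 were tRNA-Asn-GTT-20-1, tRNA-Asn-GTT-12-1, TRN-GTT8-1 and TRN-GTT9-1, named after their values were seen. TRN-GTT9-1 was separate by a narrow margin, 1.655 CPM in the lowest LMNB1 library against 1.649 CPM in the highest GFP library. Without the GFP library of replicate 3 the medians were 0.42 and 0.80, and without that of replicate 2 they were 0.11 and -0.12, with the glutamine sign turned.

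The 3 glutamine genes past the unadjusted threshold with LMNB1 included the tRNA-Gln-CTG-8-2 copy at chr1:146055612-146055683 (plus strand). It was at 1.01, 0.742 and 0.817 CPM with GFP, 1.19, 1.17 and 1.15 with LMNA, 1.01, 1.69 and 1.54 with LMNB1 and 0.874, 0.998 and 0.924 with LMNB2. LMNB1 overlapped GFP only through its library of replicate 1, and LMNA lay above GFP throughout. The log2 fold change with LMNB1 was 0.72 ± 0.19 (edgeR adjusted p = 0.703), and that of LMNB2 over LMNB1 was -0.60 ± 0.19 (adjusted p = 0.113). The 3 copies of this RNA had log2 fold changes of 0.53 to 0.72 with LMNB1 and are not independent readouts. Lower than GFP with LMNB1, by lowest p, were TRQ-CTG7-1 at a log2 fold change of -0.76 ± 0.77 and TRQ-TTG2-1 at -0.24 ± 0.28, and without the GFP library of replicate 3 they were at 0.80 and 0.35.

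With LMNB2, the asparagine genes were centred on the GFP level and most glutamine genes lay below it, and none passed the test. edgeR called 0 of 50 genes beside 2.66% of all features, and DESeq2 called 1, TRQ-CTG7-1, lower, beside 1.67% of features lower. Of the other nuclear tRNA genes, edgeR called 3 of 413, all lower, and DESeq2 called 28 lower and 1 higher. Fold changes were above 0 for 13 of 27 asparagine genes (median log2 -0.00, and 0.18 when scaled by total counts only) and for 3 of 23 glutamine genes (median -0.51), against medians of -0.20 for other tRNA genes and -0.04 for all features. Without the GFP library of replicate 3 the glutamine median was 0.19. At an unadjusted p under 0.05, 2 asparagine genes were higher and 2 glutamine genes lower, against 9.58% of features higher and 10.4% lower. Among 413 other tRNA genes, 75 were lower and 8 higher. LMNB2 libraries lay wholly above GFP at 1 gene (12.1% of all features and 5 of 413 other tRNA genes) and wholly below it at 2 (10.2% and 60 of 413). These 2 were the tRNA-Asn-ATT-1-2 copy at 148246758, by the narrow margin given above, and TRQ-CTG7-1.

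The asparagine genes higher with LMNB2 at the lowest p were tRNA-Asn-GTT-12-1 and tRNA-Asn-GTT-20-1, the latter given above. tRNA-Asn-GTT-12-1 (chr1:143831708-143831781, minus strand) was at 0.524, 0.375 and 0.620 CPM with GFP, 0.753, 0.766 and 0.637 with LMNA, 0.670, 0.753 and 0.980 with LMNB1 and 0.627, 0.742 and 0.810 with LMNB2. Every lamin library lay above every GFP library, and the log2 fold changes were 0.49 ± 0.20 for LMNA, 0.64 ± 0.20 for LMNB1 and 0.50 ± 0.20 for LMNB2 (edgeR adjusted p = 0.162 for LMNB2; without the GFP library of replicate 3 it was 0.031, a call, beside 3.97% of features higher). The glutamine genes lower with LMNB2 at the lowest p were TRQ-TTG2-1 and TRQ-CTG7-1. TRQ-TTG2-1 was at 1.50, 1.62 and 3.68 CPM with GFP, 1.96, 1.72 and 2.36 with LMNA, 1.74, 1.84 and 2.19 with LMNB1 and 1.36, 1.58 and 1.24 with LMNB2. LMNB2 overlapped GFP and lay below both other lamins, with a log2 fold change over GFP of -0.70 ± 0.28 (edgeR adjusted p = 0.176), which was -0.11 without the GFP library of replicate 3. TRQ-CTG7-1 had all LMNB2 libraries below GFP, at a log2 fold change of -2.01 ± 0.83 (adjusted p = 0.216), and -0.46 without the GFP library of replicate 3.

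Most members had lower small RNA levels with LMNB2 than with the other lamins, and none passed the test. Against LMNA, fold changes were below 0 for 26 of 27 asparagine genes (median log2 -0.42) and for 23 of 23 glutamine genes (median -0.29), beside medians of -0.42 for other tRNA genes and -0.01 for all features. edgeR called 0 of 50 genes, beside 2.01% of all features and 7 of 413 other tRNA genes, the latter all lower. DESeq2 called 0, beside 1.27% of all features higher and 0.507% lower. At an unadjusted p under 0.05, 9 asparagine genes and 1 glutamine gene were lower and none higher, against 6.65% of features lower and 9.8% higher. Of the other tRNA genes, 117 of 413 were lower and 1 higher. LMNB2 libraries lay wholly below LMNA at 19 asparagine and 4 glutamine genes, against 13.5% of all features and 249 of 413 other tRNA genes. Scaled by total counts only, the medians were -0.21 for asparagine and -0.06 for glutamine genes, and without LMNB2 replicate 2 the glutamine median was -0.14. The summed MIR17 cluster was also lower with LMNB2, as given above, and its part in these results was not tested. In a fit of only the 6 libraries compared, edgeR called 18 genes lower (16 asparagine and 2 glutamine). That fit called 5.28% of features and 140 of 407 other tRNA genes lower. The joint fit without the GFP library of replicate 3 called 2 (TRQ-TTG2-1 and TRN-GTT2-4), beside 2.41% of features and 83 of 414 other tRNA genes lower. TRN-GTT2-4, at the lowest p here, was at 12.4, 10.9 and 13.0 CPM with LMNA and 8.29, 7.88 and 8.58 with LMNB2, which did not overlap, a log2 fold change of -0.55 ± 0.20 (adjusted p = 0.184).

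Against LMNB1, the LMNB2 median lay farther below 0 for glutamine than for asparagine genes, a gap that was not tested. Fold changes were below 0 for 23 of 23 glutamine genes (median log2 -0.66) and 25 of 27 asparagine genes (median -0.27), beside -0.34 for other tRNA genes. edgeR called 0 of 50 genes, beside 2.19% of all features and 5 of 413 other tRNA genes, the latter all lower. DESeq2 called 0, beside 1.65% of all features higher and 0.263% lower. At an unadjusted p under 0.05, 3 asparagine and 4 glutamine genes were lower and none higher, against 6.23% of features lower and 9.78% higher. Of the other tRNA genes, 73 of 413 were lower and 1 higher. LMNB2 lay wholly below LMNB1 at 16 glutamine and 9 asparagine genes, against 14.1% of all features and 182 of 413 other tRNA genes. A fit of only these 6 libraries called 16 genes lower, 8 of each amino acid, beside 7.04% of features and 158 of 407 other tRNA genes lower. Leaving the GFP library of replicate 3 out of the joint fit called 8, beside 2.37% of features and 54 of 414 other tRNA genes lower. The lowest p in the joint fit was that of the tRNA-Gln-CTG-8-2 copy at 149044937, which was at 1.04, 1.66 and 1.52 CPM with LMNB1 and 0.911, 0.729 and 1.01 with LMNB2, without overlap, a log2 fold change of -0.66 ± 0.20 (adjusted p = 0.103).

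Between LMNB1 and LMNA most glutamine genes were higher with LMNB1, and no gene of either amino acid was called. The glutamine fold changes of LMNB1 over LMNA were above 0 for 22 of 23 genes (median log2 0.36), and those of asparagine genes for 7 of 27 (median -0.12, which is 0.03 when scaled by total counts only). For other tRNA genes they were above 0 at 139 of 413 (median -0.09), and the median of all features was 0.01. When each library was left out in turn, the asparagine median ran from -0.22 to 0.00089, the highest without LMNB1 replicate 1, and the glutamine median from 0.16 to 0.49. edgeR called 0 of 50 genes and DESeq2 called 0, beside 0.0118% of features called by edgeR and 0.0148% in each direction by DESeq2. At an unadjusted p under 0.05, 2 asparagine genes were lower and 0 genes higher, against 3.25% and 2.5% of features. Among 413 other tRNA genes, 22 were lower and 0 higher. The libraries did not overlap at 1 glutamine gene, TRQ-CTG2-1, and 1 asparagine gene, TRN-GTT7-1, higher with LMNB1 (6.07% of all features and 4 of 413 other tRNA genes). They also did not overlap at tRNA-Asn-GTT-17-1 and TRN-GTT2-3, lower (7.51% and 74 of 413). These 4 members were named after their values were seen, although TRQ-CTG2-1 and TRN-GTT2-3 are also the highest genes of their anticodons.

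**Figure D5:**
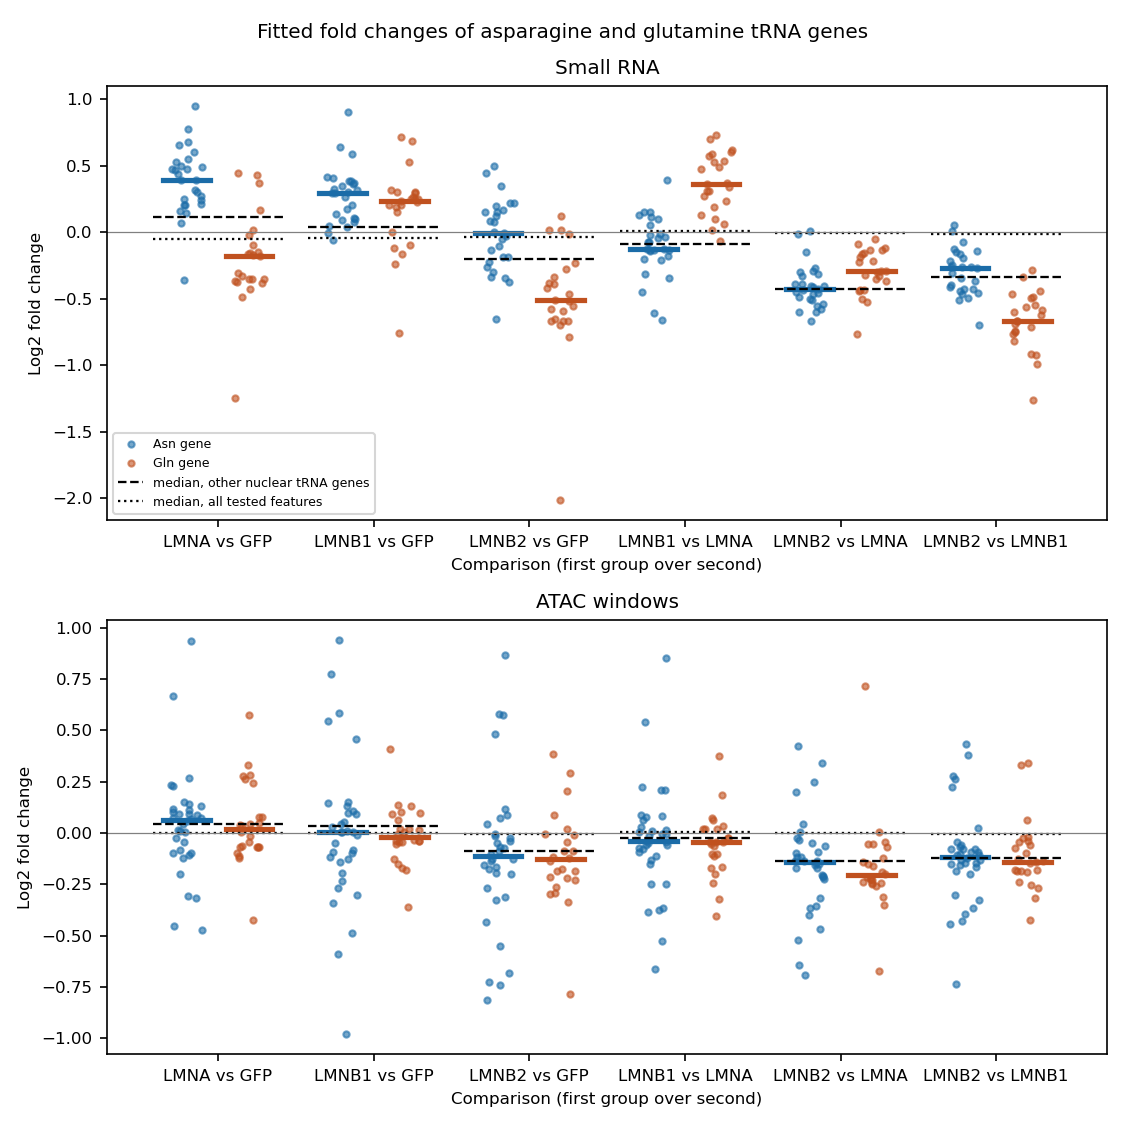
Fitted log2 fold changes (vertical) of the tested asparagine (blue) and glutamine (orange) genes in the 6 comparisons, in small RNA (top, 50 genes) and ATAC (bottom, 58 genes); thick bars are the medians, dashed lines the median of other nuclear tRNA genes and dotted lines that of all tested features. The amino acids part in LMNA against GFP, with medians of 0.40 and -0.18 in small RNA (the glutamine median is 0.53 without the GFP library of replicate 3), and the ATAC medians stay within -0.21 and 0.06.

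No window differed in accessibility past the test. edgeR called 0 of 58 windows in each of the 6 comparisons. Over all 163786 windows it called 0.000611% for LMNA, 0.00305% for LMNB1 and 0.00244% for LMNB2 against GFP, 0.223% for LMNB1 against LMNA, and 0.00305% for LMNB2 against LMNA and against LMNB1. DESeq2 also called 0 of 58, beside at most 0.539% of all windows in a direction (lower, LMNB1 against LMNA). At an unadjusted p under 0.05 the counts were 1 higher and 0 lower with LMNA (2.82% and 2.37% of all windows), 0 in both directions with LMNB1 (2.26% and 2.52%), and 0 higher and 6 lower with LMNB2 (2.89% and 2.83%), of which 1 was an asparagine and 5 were glutamine genes. Of the other nuclear tRNA windows, 51 of 424 were lower and 2 higher with LMNB2 than with GFP at that threshold. LMNB1 against LMNA had 1 higher and 0 lower (1.74% and 3.62% of all windows). Against GFP, the asparagine and glutamine ATAC medians (log2) were 0.06 and 0.02 with LMNA, 0.00 and -0.02 with LMNB1 and -0.11 and -0.13 with LMNB2, against 0.04, 0.03 and -0.09 for other tRNA genes. Scaled by total counts only, the median over the 58 windows with LMNB1 was 0.19. The within-group SD was 0.22 for asparagine and 0.16 for glutamine windows.

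Most windows had lower fitted levels with LMNB2, relative to TMM scaling. They were below GFP at 45 of 58 genes, below LMNA at 50 and below LMNB1 at 49. The other nuclear tRNA windows were likewise below GFP at 333 of 424, below LMNA at 372 and below LMNB1 at 359. The summed asparagine windows were at 58.9, 55.7 and 48.9 CPM with GFP, 58.9, 59.0 and 52.6 with LMNA, 57.9, 57.2 and 51.3 with LMNB1 and 50.4, 49.97 and 52.4 with LMNB2. The glutamine windows were at 52.4, 52.2 and 43.7 CPM with GFP, 50.9, 52.1 and 44.1 with LMNA, 50.5, 50.2 and 44.9 with LMNB1 and 43.5, 44.8 and 43.5 with LMNB2. In GFP, LMNA and LMNB1 the library of replicate 3 was the lowest for both sums and near the LMNB2 libraries, so both sums of LMNB2 overlapped GFP. Relative to the flanks of 500 bp, the LMNB2 median over all 58 genes was -0.014 in place of -0.12, and scaled by total counts only it was -0.015. Against LMNA, 11 genes were lower and 1 higher at an unadjusted p under 0.05 (3.61% and 3.56% of all windows). Against LMNB1, 5 were lower and 0 higher (1.83% and 3.15%). Other nuclear tRNA windows were lower at 82 of 424 against LMNA and at 59 against LMNB1, and higher at 1 and 2.

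The ATAC windows lower with LMNB2 at the lowest p were those of TRQ-CTG1-4 and TRN-GTT2-6. TRQ-CTG1-4 was at 2.83, 2.62 and 2.29 CPM with GFP, 2.54, 2.49 and 2.22 with LMNA, 2.23, 2.39 and 2.33 with LMNB1 and 1.86, 2.07 and 2.19 with LMNB2. LMNB2 lay below all other libraries, a log2 fold change over GFP of -0.34 ± 0.10 (edgeR adjusted p = 0.815). Its small RNA level in GFP was 18.4, 13.7 and 53.6 CPM and in LMNB2 18.8, 15.8 and 19.9 CPM, which overlapped. TRN-GTT2-6 (chr19:1383563-1383636, plus strand) was at 3.11, 3.54 and 2.96 CPM with GFP, 3.38, 3.51 and 2.78 with LMNA, 2.89, 3.15 and 2.76 with LMNB1 and 2.29, 2.96 and 2.48 with LMNB2. The lowest GFP library, at 2.963 CPM, lay barely above the highest LMNB2 library, at 2.960 CPM, so these groups did not overlap. The log2 fold change was -0.31 ± 0.10 (edgeR adjusted p = 0.859). Beside 4.72% of all windows and 48 of 424 other nuclear tRNA windows, LMNB2 lay wholly below GFP at 7 of 58 windows. Highest among the glutamine windows, TRQ-TTG1-1 was one of these, at 8.10, 7.62 and 6.54 CPM with GFP and 6.22, 6.49 and 6.28 with LMNB2 (log2 fold change -0.23 ± 0.09). TRQ-CTG1-5 on chromosome 17, whose window had the highest CPM of the anticodon CTG but the lowest local contrast of the 24 glutamine genes, 0.704, was another, at 3.20, 4.13 and 3.28 CPM with GFP, 3.60, 3.58 and 2.97 with LMNA, 3.56, 3.50 and 3.30 with LMNB1 and 2.98, 3.17 and 2.51 with LMNB2 (-0.29 ± 0.10, adjusted p = 0.860). TRN-GTT24-1, whose window had the highest CPM of the asparagine genes, was at 6.34, 5.61 and 5.33 CPM with GFP, 6.22, 5.81 and 5.77 with LMNA, 6.16, 5.85 and 5.32 with LMNB1 and 5.43, 4.71 and 5.96 with LMNB2. Its groups overlapped, at a log2 fold change with LMNB2 of -0.10 ± 0.09.

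With LMNA the ATAC windows at the lowest p were TRQ-CTG3-2, higher at a log2 fold change of 0.24 ± 0.11 (edgeR adjusted p = 0.957), and copies whose levels are low. The tRNA-Gln-CTG-8-2 copy at 120476852 was at 0.158, 0.076 and 0.114 CPM with GFP and 0.175, 0.176 and 0.176 with LMNA, without overlap (log2 fold change 0.57 ± 0.32). The copy at 149044937 went the other way, at 0.152, 0.188 and 0.191 CPM with GFP and 0.10, 0.148 and 0.141 with LMNA (-0.43 ± 0.32), so 2 copies of the same RNA differed in sign. The tRNA-Asn-ATT-1-2 copy at 148246758 was at 0.253, 0.217 and 0.299 CPM with GFP and 0.165, 0.171 and 0.208 with LMNA (-0.47 ± 0.28). With LMNB1, TRN-GTT27-1 and TRN-GTT10-1 had the lowest p for a higher level, at log2 fold changes of 0.94 ± 0.60 and 0.55 ± 0.36. Without LMNB1 replicate 3 these were 0.62 and 0.28. Counts there were few, 4, 5 and 4 with GFP and 7, 17 and 21 with LMNB1 at TRN-GTT27-1. Lower with LMNB1 were the tRNA-Asn-GTT-15-1 copy at 149698478 (-0.98 ± 0.68) and TRQ-CTG1-3 (-0.17 ± 0.10, and 0.01 when scaled by total counts only). With LMNB2 the copy of tRNA-Asn-GTT-15-1 at 145171264 had the lowest p for a higher level, 0.87 ± 0.71, on counts of 2, 2 and 5 with GFP and 6, 13 and 12 with LMNB2. Next was the tRNA-Gln-CTG-8-2 copy at 120476852, at 0.38 ± 0.31, and no adjusted p of these genes was under 0.815.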

How the data were processed

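The authors deposited raw counts, a table per assay, with whole numbers whose totals differ between libraries, for annotated intervals that reach 25 bp beyond each tRNA gene on both sides (small RNA) and for windows 125 bp wider on each side with flanks of 500 bp (ATAC). The build is GRCh38, per the submitters' processing notes. How reads were aligned and counted, whether strand was used and how reads that map to several copies were treated are not given in the sources used here, so identical copies and overlapping features may share reads.

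Groups came from the sample titles. In each assay all 12 libraries were fitted in edgeR 4.0.16 (R 4.3.3; limma 3.58.1) as group means, on features kept by filterByExpr and with TMM factors. The robust quasi-likelihood test gave p-values, adjusted by Benjamini-Hochberg over all tested features. A call is an adjusted p under 0.05. Log2 fold changes used a prior count of 2, and SE is the unshrunk fold change over the root of F. CPM used the TMM-scaled totals. DESeq2 1.42.0, other scalings and filters, fits of fewer libraries and the replicate block were alternatives. The scripts were tested on simulated data. RefSeq (GRCh38.p14) gave symbols, for 40 of 60 genes. The counts cannot be resolved into molecules, so the spread between replicates is the error given.

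Genes named were, per assay and lamin against GFP, the 2 with the lowest p in each direction, and per anticodon the highest in each assay. Any others are named as examples of a count or as chosen after their values were seen. The members and lists were chosen with earlier results of these data known.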

Additional observations from a re-analysis of the deposited data

How the results depend on the processing

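Every alternative was run in each of the 6 comparisons and both assays, except the flank scaling, which was run in ATAC against GFP. Scaling by total counts only put the median of all small RNA features at 0.11 (LMNB1 against GFP), 0.19 (LMNB2 against GFP), 0.15 (LMNB1 against LMNA) and 0.20 (LMNB2 against LMNA), and that of all ATAC windows at 0.19 and 0.11 (LMNB1 and LMNB2 against GFP) and 0.10 (LMNB1 against LMNA), where TMM gave values between -0.05 and 0.01. With it the median log2 fold change of the 50 genes was 0.24 for LMNB1 against LMNA and -0.15 for LMNB2 against LMNA. For LMNB2 against GFP it was 0.021 in place of -0.23, a change of sign. The median of the ATAC windows was 0.19 for LMNB1 and -0.015 for LMNB2 against GFP. Among the lamins it was 0.054 for LMNB1 against LMNA and -0.21 for LMNB2 against LMNB1, and TRQ-CTG1-3 turned to 0.014 in ATAC with LMNB1 against GFP. Without lncRNA features the small RNA median of LMNB2 against LMNA was -0.20, and relative to the flanks the ATAC median of LMNB2 against GFP was -0.014.

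Calls in small RNA appeared without a count filter (2 with LMNA, 1 with LMNB1 and 1 with LMNB2 against GFP, 1 for LMNB2 against LMNA and 4 against LMNB1, beside at most 0.594% of all features in a direction), in DESeq2 (2 with LMNA and 1 with LMNB2 against GFP) and in fits of only the libraries compared (18 for LMNB2 against LMNA and 16 against LMNB1). Otherwise, leaving libraries out aside, there were 0 calls, and in ATAC 0 under every alternative. Leaving out each library in turn gave 0 to 4 calls with LMNA, 0 with LMNB1 and 0 to 1 with LMNB2 against GFP, 0 to 2 for LMNB2 against LMNA, 0 to 8 against LMNB1 and 0 for LMNB1 against LMNA, all of them without the GFP library of replicate 3.

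Over the same leave-one-out fits, the small RNA median ranged from 0.038 to 0.56 with LMNA, -0.017 to 0.67 with LMNB1 and -0.45 to 0.17 with LMNB2 against GFP, the extremes without GFP replicates 2 and 3. For LMNB1 against LMNA it ranged from 0.02 to 0.17, for LMNB2 against LMNA from -0.41 to -0.32 and against LMNB1 from -0.57 to -0.37. The ATAC medians ranged from -0.03 to 0.10, -0.07 to 0.06 and -0.18 to -0.07 against GFP, and from -0.09 to 0.00, -0.24 to -0.14 and -0.16 to -0.10 among the lamins. Without GFP replicate 3, all 50 fold changes with LMNA were positive, against 31 with all libraries, and 38 with LMNB2, against 16. Among the named genes, 4 turned positive: TRQ-CTG7-1 (range -1.77 to 0.32) and TRQ-CTG5-1 (-0.69 to 0.22) with LMNA, and TRQ-CTG7-1 (-1.16 to 0.80) and TRQ-TTG2-1 (-0.47 to 0.35) with LMNB1. The cause of these changes was not tested.

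With the replicate number as a block, edgeR called 0 genes in all 6 comparisons of both assays, and the small RNA medians were 0.23, 0.33 and -0.18 against GFP. Only 2 of 18 correlations between same-numbered libraries exceeded 0.1 in each assay (-0.04 to 0.23 in small RNA and -0.08 to 0.19 in ATAC). Those between libraries of different numbers ran from -0.21 to 0.07 in small RNA and from -0.15 to 0.09 in ATAC. In small RNA, GFP and LMNA libraries correlated at 0.21 for replicate 2 and 0.23 for replicate 3. Crossed, they were at -0.21 (GFP replicate 2 with LMNA replicate 3) and -0.20 (GFP replicate 3 with LMNA replicate 2). Some sums followed the replicate number, as given above. Whether same-numbered libraries were handled together was not tested. Genes of a few counts per library, in both assays, limit what could be detected at this depth.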

Other observations

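Other transcripts of the tRNA pathway were read from lists beside the asparagine and glutamine genes. RNase P RNA (RPPH1), which trims the leader of precursor tRNA, and its relative RMRP had no call in any of the 6 comparisons in either assay (edgeR and its Benjamini-Hochberg adjusted p). Their median log2 fold changes over GFP in small RNA were 0.24 with LMNA, 0.01 with LMNB1 and 0.16 with LMNB2, from 2 genes. The 7 genes listed as having an internal promoter of the tRNA kind (vault RNAs, 7SL RNAs and BCYRN1) also had 0 calls, with medians of 0.03, 0.15 and -0.19. Within that list, VTRNA2-1 was at 814, 830 and 562 CPM with GFP and 353, 359 and 429 CPM with LMNB2, without overlap, whereas RN7SL1 was at 15.4, 12.2 and 14.0 CPM with GFP and 21.4, 21.3 and 20.6 CPM with LMNB2, also without overlap and higher. These 2 genes were named after their values were seen. Over all small RNA features, LMNB2 lay wholly below GFP at 10.2% and wholly above it at 12.1%.

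The mitochondrial asparagine and glutamine tRNA genes, MT-TN and MT-TQ, are transcribed by another polymerase from mitochondrial DNA. MT-TQ was at 11.1, 8.15 and 6.82 CPM of small RNA in GFP, 8.21, 7.04 and 7.15 with LMNA, 5.89, 7.23 and 6.03 with LMNB1 and 6.04, 6.12 and 5.24 with LMNB2, with LMNB2 below GFP in all libraries. MT-TN was at 11.5, 8.70 and 9.47 CPM with GFP and 8.45, 8.73 and 8.36 with LMNB2, which overlapped. In ATAC, where these rows count mitochondrial DNA, MT-TQ was at 1591, 2264 and 2154 CPM with GFP and 991, 1284 and 966 CPM with LMNB2. The median ATAC log2 fold changes over GFP of the 2 genes were -0.28 with LMNA, -0.65 with LMNB1 and -0.91 with LMNB2, and neither was called by edgeR. The share of all ATAC counts on the mitochondrial chromosome moved with them, at 39.9%, 47.5% and 47.0% in GFP and 25.2%, 30.7% and 24.5% in LMNB2. Its part in the values of these 2 genes was not tested. With TMM factors from features outside that chromosome, the ATAC median of the asparagine and glutamine windows, LMNB2 against GFP, was -0.120 in place of -0.124.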
